A study of Mus musculus with 8 samples.

Results

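The regions described here are 11398 sites bound by KDM4B that lay far from every called H3K9me3 peak. They were chosen by measured peak positions and widths. A peak of the KDM4B list of WT cells was taken when it lay on an autosome, was narrower than 3000 bp, and had edges more than 10 kb from every H3K9me3 peak of both the KO and the WT list. They were 11398 of 30961 narrow autosomal KDM4B peaks and of 32017 KDM4B peaks in all. The lists came from chromatin immunoprecipitation sequencing (ChIP-seq) of primary mesenchymal stem cells of mouse bone marrow after 4 hours of osteogenic induction. KO cells carried Prx1Cre; Kdm4bf/f and WT cells carried Prx1Cre; Kdm4bw/w, so both genotypes carried the Cre transgene, which the limb mesenchyme promoter Prx1 drives. The labels of the KDM4B samples give the genotype in the title alone. They name 2 KDM4B antibodies without saying which library used which, mention a yeast spike-in for H3K9me3, and do not say whether animals were pooled. Peak lists hold no expression, so the cell type was not checked against its markers. The rule drew on 3 libraries, 1 each of H3K9me3 in KO cells, H3K9me3 in WT cells and KDM4B in WT cells, so nothing below carries a test between genotypes. Intervals are 95% exact intervals for counting error only, and neighbouring sites are not independent.

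KDM4B belongs to the JmjC family of histone demethylases and acts on methylated lysine 9 of histone H3. H3K9me3, the trimethylated form, marks heterochromatin and silenced repeats and is the substrate of the enzyme. In mesenchymal stem cells KDM4B is known to promote osteogenic differentiation. The sites described here are those at which binding was called and the substrate mark was not called nearby in either genotype.

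Depth was written in the file of 1 library alone, H3 in WT cells, with 40420466 tags after filtering against 45099322 in its control. For the 3 libraries behind the rule it is unknown. The H3K9me3 lists held 55158 autosomal peaks in KO cells and 781 in WT cells, so the distances of KDM4B sites called in WT cells were set almost wholly by H3K9me3 called in KO cells. With 1 library each, a difference of genotype and a difference between libraries or peak calls cannot be told apart. Positions are those of the deposited files in mouse build mm9, which do not say whether starts count from 0 or from 1. No annotation or genome of that build was used here, so sites are named by position and were not placed at genes.

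Of the 30961 narrow autosomal KDM4B sites, 36.8% were far from H3K9me3 (36.3 to 37.4%). A further 12703 sites, or 41.0%, lay within 10 kb of an H3K9me3 peak without touching it, and 6860, or 22.2%, overlapped one by at least 1 bp. For 11224 of the far sites the nearest H3K9me3 peak belonged to the KO list, and for 173 it belonged to the WT list. The WT list took away only 37 sites that the KO list had left. With the WT list alone, 99.5% of the narrow sites would have been far, and with KO and WT H3K9me3 peaks of 300 bp or more 57.9% would have been. At a limit of 50 kb the share was 13.03%.

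The limit of 10 kb did not fall at a break in the data. There were 457 sites between 10 and 11 kb from H3K9me3, with a median width of 483 bp, and 487 sites between 9 and 10 kb, with a median width of 474 bp. The sites just inside were on chromosome 4 from 32336714 to 32338376, at 10005 bp, and on chromosome 7 from 134223579 to 134224107, at 10008 bp. The sites just outside were on chromosome 7 from 109064601 to 109064870, at 10000 bp, and on chromosome 16 from 21310645 to 21311328, at 9999 bp. At the width limit, the widest far site measured 2985 bp. The narrowest autosomal peak above that limit and more than 10 kb from H3K9me3 measured 3014 bp.

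Far sites lay at a median of 33.3 kb from the nearest H3K9me3 peak. The middle 50% lay between 17.9 and 70.7 kb, and the most remote lay 3034.5 kb away. Between 10 and 20 kb there were 3367 sites, or 29.5%. Between 20 and 50 kb there were 3998, or 35.1%. Between 50 and 100 kb there were 2027, or 17.8%. Most far sites were therefore found within 100 kb of the mark, while 1831 lay from 100 to 500 kb away, 150 from 500 to 1000 kb, and 25 beyond 1000 kb. To the WT list alone the median distance was 2971 kb, to the KO list alone 33.5 kb.

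KDM4B sites thinned out steadily with distance from H3K9me3. Sequence more than 10 kb from the mark made up 79.3% of the autosomal span and held 6.06 KDM4B site midpoints per Mb (5.95 to 6.17). Sequence inside or within 10 kb of a peak held 38.96 per Mb (38.4 to 39.5). The ratio of these densities was 0.155, and the density was lower in far sequence on 19 of 19 autosomes. Since distance to H3K9me3 is what chose the sites, this is a description and not a test.

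Within the far range the fall went on. The density was 15.2 per Mb from 10 to 20 kb (14.7 to 15.7), 11.1 from 20 to 50 kb and 7.13 from 50 to 100 kb. It was 3.94 from 100 to 200 kb, 1.79 from 200 to 500 kb and 0.490 beyond 500 kb (0.420 to 0.569). On the near side it was 19.4 per Mb from 5 to 10 kb, 25.6 from 2 to 5 kb, 34.5 from 1 to 2 kb and 74.99 within 1 kb, and 190 inside the peaks. These values do not remove assembly gaps or repeats, where reads cannot be placed for either antibody; their part in the gradient was not tested.

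**Figure D1:**
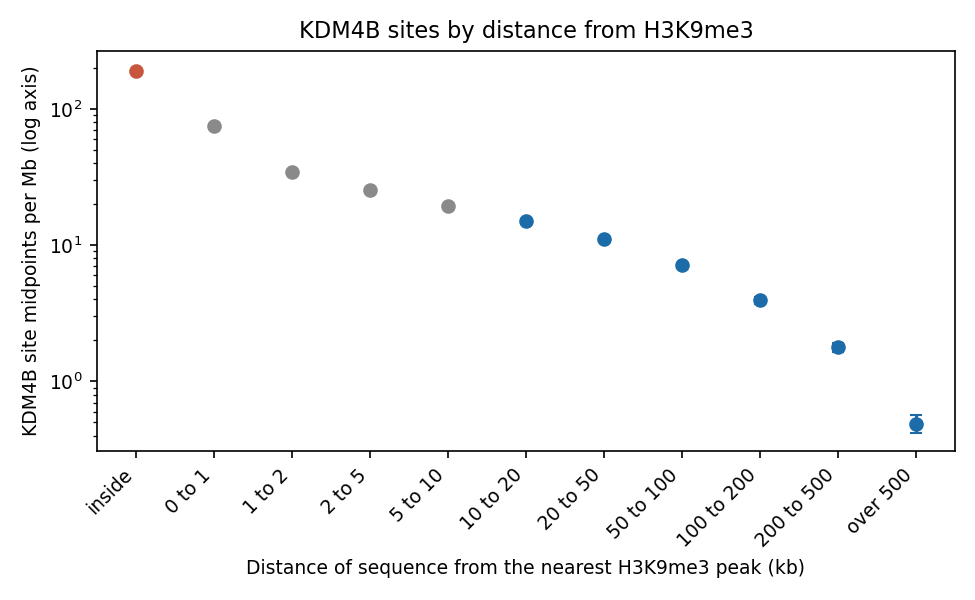
KDM4B site midpoints per Mb of autosomal sequence (log axis) by distance of the sequence from the nearest H3K9me3 peak of either genotype (kb). Points are densities over all autosomes, blue for sequence more than 10 kb away, grey for nearer sequence and red for sequence inside peaks, and bars are 95% exact Poisson intervals; the density falls in every step, from 190 per Mb inside to 0.490 beyond 500 kb.

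Cutting the genome at its H3K9me3 peaks gave another view of the same positions. Longer stretches hold more sequence remote from the mark, so this view is not separate evidence of the gradient. Between neighbouring peaks there were 14497 stretches of over 20 kb, the shortest that could hold a far site, and 3767 of them held at least 1. Of the stretches of 20 to 50 kb, 11.6% held a far site, and of those from 100 to 200 kb 42.3%. Of those longer than 1000 kb, 48.9% did, although each offered many times the sequence. The far part of these stretches held 18.3 far sites per Mb at 20 to 50 kb (17.4 to 19.2), 11.6 at 100 to 200 kb, and 1.31 above 1000 kb (1.22 to 1.39). Of the 3767 stretches with a far site, 1679 held exactly 1 and 193 held 10 or more, and those 193 contained 26.1% of all far sites.

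Length alone did not set the number. The longest stretch with a far site, on chromosome 15 between 13103668 and 22822472, ran 9.72 Mb and held 1 site, and the next, on chromosome 1 between 99992264 and 106665831, ran 6.67 Mb and also held 1. The stretch on chromosome 1 between 145851366 and 151946995, of 6.096 Mb, held 34 sites. The stretches of 4.53 Mb on chromosome 18 and 4.28 Mb on chromosome 14 held 2 and 3. Among these 5, only the second chromosome 1 stretch also contained a KDM4B domain of 3000 bp or more.

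Far sites were narrow, with a median width of 471 bp, and the middle 50% spanned 321 to 758 bp. Sites within 10 kb of H3K9me3 had a median of 446 bp (306 to 718 bp), and sites overlapping it had a median of 727 bp (438 to 1206 bp). Sites of 1 kb or more were 14.7% of the far sites (14.04 to 15.4%), 13.5% of those within 10 kb (12.9 to 14.1%) and 34.0% of those overlapping (32.9 to 35.1%), against 18.5% of all narrow autosomal sites. The far sites thus resembled the neighbouring sites in width more than they resembled the overlapping ones. Overlap needs 1 shared bp and width is limited by the rule, so width and class are not independent here.

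Read by width, the share of far sites was 38.6% among sites under 300 bp and 39.9% at 400 to 600 bp. It was 35.8% at 600 to 1000 bp, 30.5% at 1 to 2 kb and 23.4% at 2 to 3 kb (20.8 to 26.1%). The share overlapping H3K9me3 was 11.3% under 300 bp and 51.3% at 2 to 3 kb. Within the far sites, the median width varied little up to 500 kb from the mark. It was 460 bp at 10 to 20 kb, 481 bp at 20 to 50 kb, 478 bp at 50 to 100 kb and 472 bp at 100 to 500 kb. The 150 sites at 500 to 1000 kb had a median of 442 bp and the 25 beyond had one of 389 bp. The far sites together covered 7.06 Mb, of which sites of 1 kb or more held 34.9%.

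**Figure D2:**
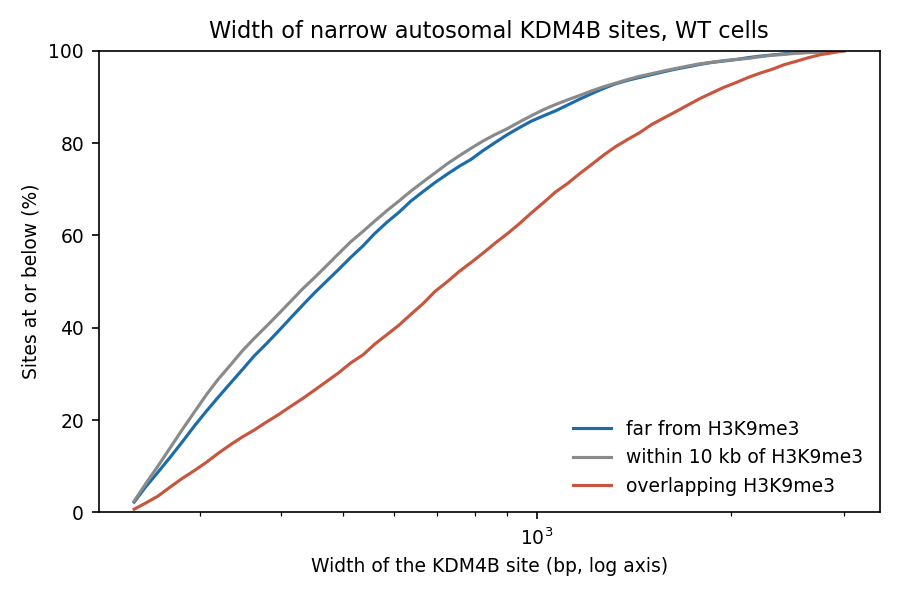
Cumulative share of narrow autosomal KDM4B sites (%) at or below each width (bp, log axis), for sites far from H3K9me3, within 10 kb of it and overlapping it. The far and the neighbouring sites run close together, with medians of 471 and 446 bp, and the overlapping sites lie to the right with a median of 727 bp.

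The 10 widest far sites measured 2844 to 2985 bp. The widest lay on chromosome 10 from 51173125 to 51176110, 221 kb from the nearest KO and 1916 kb from the nearest WT H3K9me3 peak. The second lay on chromosome 2 from 160445238 to 160448213, with 2975 bp at 23.5 kb from a KO peak, and the third on chromosome 1 from 154677808 to 154680782, with 2974 bp at 42.8 kb. The next were on chromosome 3 from 121972588 to 121975559, with 2971 bp, and on chromosome 13 from 23829989 to 23832942, with 2953 bp. All 10 had another KDM4B peak within 10 kb, at gaps of 0.0520 to 8.98 kb. Among all far sites, 67.3% had such a neighbour. None of the 10 was a lone peak.

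Far sites often had a KDM4B neighbour, though less often than the sites nearer to H3K9me3. Another KDM4B peak of any width lay within 10 kb of 7668 far sites, or 67.3% (66.4 to 68.1%), compared with 86.2% (85.6 to 86.8%) of the sites within 10 kb of H3K9me3 and 71.2% (70.1 to 72.2%) of the overlapping sites. Over all narrow autosomal sites it was 75.9%. The median gap to the next KDM4B peak was 2.63 kb for far sites, 0.579 kb for sites within 10 kb of H3K9me3 and 0.840 kb for overlapping sites. A KDM4B domain of 3000 bp or more lay within 10 kb of 3.83% of far sites (3.49 to 4.20%), of 11.6% of sites within 10 kb of the mark and of 5.98% of overlapping sites. Of these autosomal domains, 70.3% overlapped H3K9me3 and 12.1% were far from it. The distance rule thus limits how many sites beside a domain can be far, and the contrast is a description and not a test.

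The share of far sites with a KDM4B neighbour fell with distance from the mark. KDM4B site density fell over the same range, from 15.2 per Mb at 10 to 20 kb to 0.490 beyond 500 kb. Whether grouping changed relative to density was not tested. A KDM4B neighbour lay within 10 kb of 72.4% of far sites at 10 to 20 kb from H3K9me3, of 68.7% at 20 to 50 kb and of 64.8% at 50 to 100 kb. It was 59.5% at 100 to 500 kb (57.2 to 61.8%) and 48.0% at 500 to 1000 kb (39.8 to 56.3%, 150 sites). Beyond 1000 kb it was 36.0% (18.0 to 57.5%, 25 sites). The most remote sites were therefore more often alone.

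**Figure D3:**
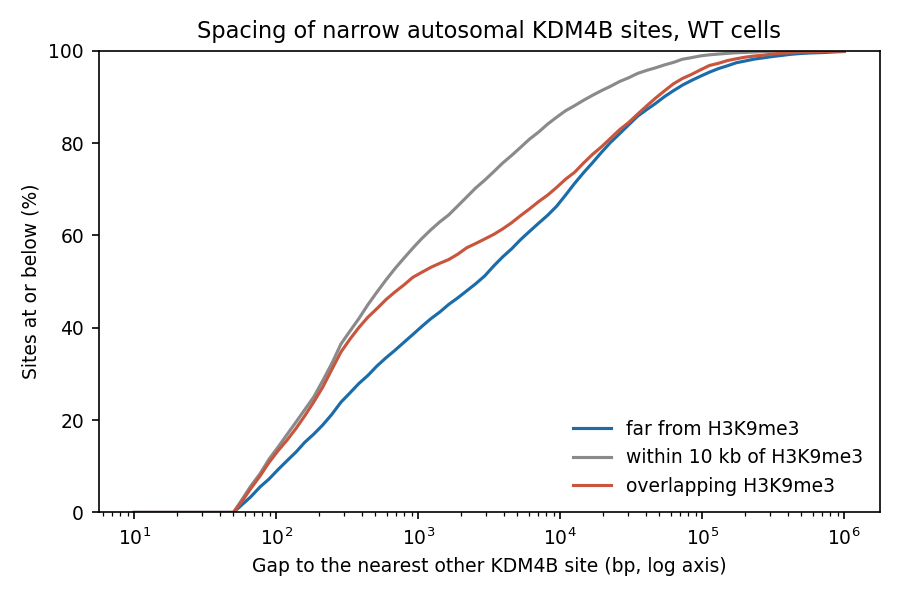
Cumulative share of narrow autosomal KDM4B sites (%) by the gap to the nearest other KDM4B peak (bp, log axis), for sites far from H3K9me3, within 10 kb of it and overlapping it. The far sites have the lowest curve at 1, 10 and 100 kb, with 67.3% having a neighbour within 10 kb.

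Narrow KDM4B sites no more than 10 kb apart were joined into groups, with a lone site counted as a group of 1. Groups made of far sites alone held 9507 far sites, or 83.4%. Of these, 3743 stood alone, 3916 were in all-far groups of 2 to 4, and 1848 were in 254 all-far groups of 5 or more. The other 1891 far sites were in groups that also reached nearer to H3K9me3. Groups with no far site numbered 3805 of 1 site, 2817 of 2 to 4 and 751 of 5 or more. Sites so close together tend to fall on the same side of the distance limit, so the share is a description. The largest all-far group, on chromosome 14 from 75563703 to 75632780, packed 31 sites into 69.1 kb, with a median width of 444 bp and the nearest H3K9me3 peak 51.2 kb away. A second, on chromosome 13 from 23622428 to 23678839, held 23 sites in 56.4 kb, 10 of them of 1 kb or more, 34.9 kb from the mark. Groups of 18 lay on chromosome 4 from 6297179 to 6328340 and from 116339687 to 116381349. These groups were picked after their values were seen.

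Every autosome carried far sites, from 281 on chromosome 18 to 994 on chromosome 2. The share of narrow sites that were far ran from 27.4% on chromosome 17 (25.1 to 29.7%) and 28.6% on chromosomes 8 and 7 up to 47.5% on chromosome 3, 47.9% on chromosome 1 and 50.2% on chromosome 13 (47.5 to 52.9%). It was above the 36.8% of all autosomes on 10 of 19. These chromosomes were picked by the share itself, and the intervals cover counting error only. The spread between the 3 highest and the 3 lowest is therefore a description and not a test. Chromosomes 1, 3 and 13 had 13.4, 9.76 and 12.6 H3K9me3 peaks of KO cells per Mb, and chromosomes 7, 8 and 17 had 29.2, 28.99 and 32.4. The order of the shares did not follow peak density throughout. Chromosome 19 had 32.1 peaks per Mb and 38.5% far sites, and chromosome 18 had 14.8 per Mb and 36.3% far sites.

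Counted per Mb of far sequence, the order was different. This count allows for the amount of far sequence, but not for how far from H3K9me3 that sequence lies. Chromosome 19 was highest, with 11.2 KDM4B midpoints per Mb of far sequence, followed by chromosome 11, with 9.80. Chromosome 18 was lowest, with 3.93, and chromosome 8 had 4.23. Chromosome 13, which had the highest share of far sites, had 7.10. Sequence inside or within 10 kb of H3K9me3 had a related order. It held 48.3 midpoints per Mb on chromosome 19, again the highest, 43.3 on chromosome 11, 34.1 on chromosome 8 and 33.0 on chromosome 18. Over 19 autosomes the Spearman correlation of far density with H3K9me3 peaks of KO cells per Mb was 0.191, and the Pearson correlation was 0.464. The Spearman correlation between the far and the near density was 0.609. The ranking was thus not particular to far sequence. Median width of the far sites ranged from 427 bp on chromosome 18 to 508 bp on chromosome 19.

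Along the chromosomes, cut into 5 equal parts from the lowest position, the share of far sites was 39.3% in the first part, 41.4 and 41.5% in the next ones, 37.7% in the fourth and 28.1% (27.1 to 29.1%) in the last. Mouse centromeres lie at the low end of the coordinates, so the last part is the one next to the distal telomere. It held the most narrow KDM4B sites, 8086, and the lowest share of far ones.

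**Figure D4:**
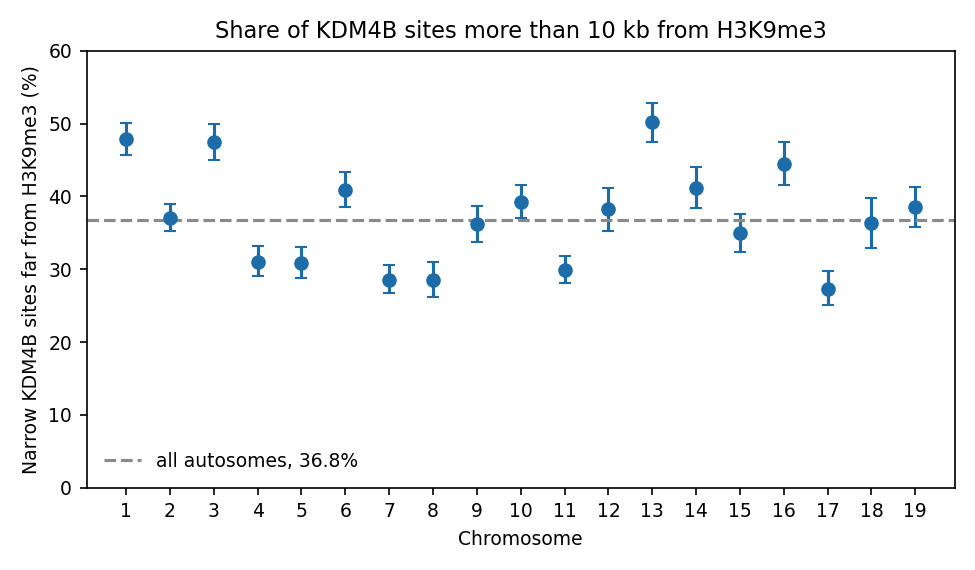
Share of narrow KDM4B sites more than 10 kb from every H3K9me3 peak (%), by autosome. Points are shares, bars are 95% exact binomial intervals and the dashed line is the 36.8% of all autosomes; chromosome 17 is lowest at 27.4% and chromosome 13 highest at 50.2%.

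Far sites occurred in 1636 of the 1835 autosomal windows of 1 Mb that held a narrow KDM4B site, with a median of 5. The densest 304 windows held 50% of them. The window on chromosome 19 from 11000001 to 12000000 was the densest, with 94 far sites among its 105 narrow ones, or 89.5% (82.0 to 94.7%). Those 94 sites ran from 11134995 to 11882757, had widths of 238 to 2245 bp with a median of 460 bp, and lay in a single stretch of 0.837 Mb without H3K9me3. That stretch also contained 1 KDM4B domain of 3000 bp or more. The window held 5 H3K9me3 peaks in KO cells, 3 below the far sites and 2 above them, and 0 in WT cells.

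The next windows had 55 far sites on chromosome 7 from 97000001 to 98000000 and 51 each, a tie, on chromosome 3 from 60000001, chromosome 7 from 87000001, chromosome 11 from 86000001 and chromosome 14 from 75000001. They were not alike in their surroundings. The chromosome 3 window had 3 KO H3K9me3 peaks and 81.0% of its narrow sites were far. The chromosome 7 window from 87000001 had 85 KO H3K9me3 peaks, and its 51 far sites were 40.2% of 127 narrow ones, none of them more than 33.5 kb from the mark. In the chromosome 11 window, 42 of the far sites shared 1 stretch of 0.177 Mb between 86392946 and 86570285, which amounts to 237 per Mb.

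Among the 571 windows with 20 or more narrow sites, every site was far in 3 and none was far in 24, and over 50% were far in 152. The 3 windows were on chromosome 10 from 51000001, with 28 sites, on chromosome 6 from 129000001, with 23, and on chromosome 13 from 5000001, with 22. In the chromosome 10 window all 28 sites sat within 175 kb, between 51142200 and 51317271, at 80.1 to 255 kb from the mark, and one of them was the widest far site of all. The windows on chromosome 16 from 24000001 and on chromosome 6 from 65000001 followed, with 26 of 27 and 23 of 24 sites far. The fullest of the windows with no far site lay on chromosome 10 from 80000001 to 81000000, with 116 narrow sites among 406 KO H3K9me3 peaks, and 3 counts of those 116 would make a share of 2.59%.

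**Figure D5:**
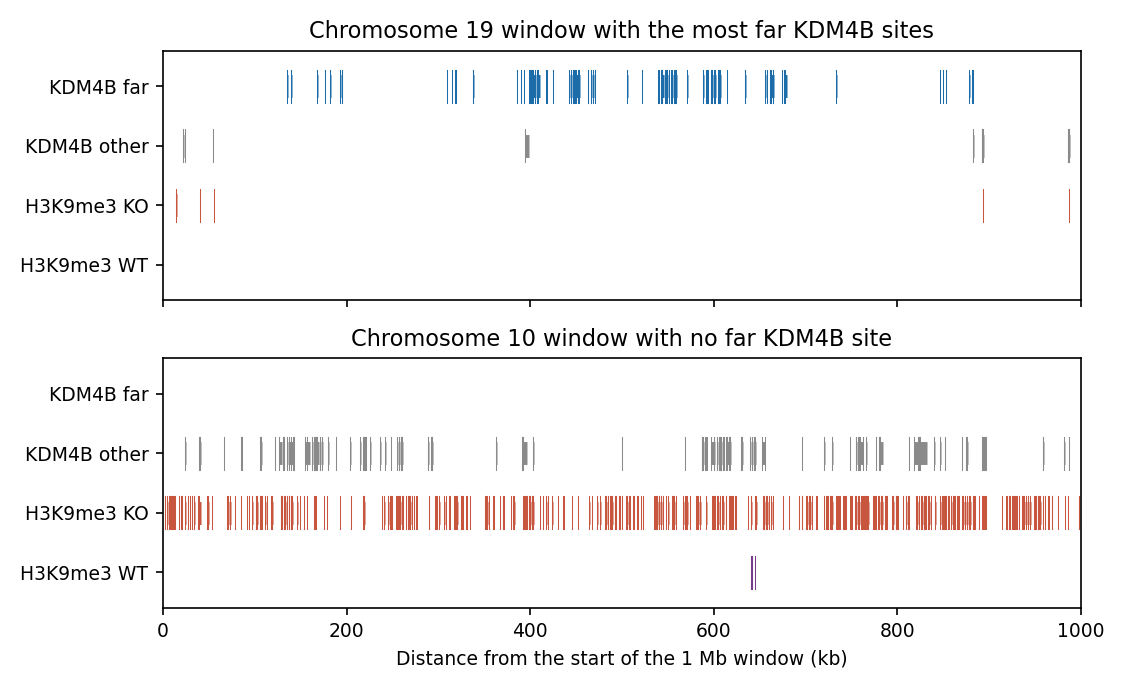
Maps of 2 windows of 1 Mb, with position as distance from the window start (kb) and rows for far KDM4B sites, other KDM4B peaks, H3K9me3 peaks of KO cells and H3K9me3 peaks of WT cells; bars are drawn to scale with a thin line at each peak start. In the chromosome 19 window 94 far sites lie between 3 KO H3K9me3 peaks on the left and 2 on the right, and in the chromosome 10 window from 80000001 none of the 116 narrow KDM4B sites is far.

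Of the 25 far sites beyond 1000 kb, 36.0% (18.0 to 57.5%) had another KDM4B peak within 10 kb, and the 10 most remote are described here. The farthest, on chromosome 15 from 19786345 to 19787970, measured 1625 bp and lay 3034.5 kb from the nearest H3K9me3 peak and 5411 kb from the next KDM4B peak. The next, on chromosome 1 from 148815138 to 148815479, measured 341 bp and lay 2964 kb from the mark. A pair on chromosome 14, from 96326062 to 96326316 and from 96355423 to 96355780, lay 29.1 kb apart and 2036 and 2065 kb from the mark. Of the 10 most remote sites, 8 were under 500 bp wide, and the others were the chromosome 15 site and one of 1237 bp on chromosome 3 from 159502411. Among all far sites, 52.6% were at most 492 bp wide. Sites of 1 kb or more were 16.0% (4.54 to 36.1%) of the 25 beyond 1000 kb, against 14.7% of all far sites. A difference in width was not tested. None of the 10 had another KDM4B peak within 10 kb.

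Far sites did not meet the peaks of the libraries that the rule left aside. Among the 11398 sites, 0 touched a KDM4B peak of KO cells and 0 touched an H3 peak of either genotype, which leaves room for a share of at most 0.0263% (3 counts). None lay within 10 kb of one, the nearest KDM4B peak of KO cells being 51.5 kb away and the nearest H3 peak 14.4 kb away. Of the sites within 10 kb of H3K9me3, 2 lay within 10 kb of a KDM4B peak of KO cells and 5 within 10 kb of an H3 peak. Those lists hold only 34 autosomal peaks for KDM4B in KO cells, 27 for H3 in KO cells and 34 for H3 in WT cells, so few sites of any class could have met them.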

How the data were processed

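ChIP-seq was done on KDM4B, H3K9me3 and total H3 in cells of 2 genotypes, 1 library each. Per the submitters' processing notes, the tools were Bowtie, SAMtools, MACS (KDM4B samples) and MACS2 (the other samples), and the mouse build was mm9. Of the 6 deposited lists, 5 hold positions without peak strength, and the H3 WT file was written by MACS2 2.1.4, per the file headers. For the others the thresholds, controls and any pooling of samples are not stated.

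Width was end minus start, and distance the gap between peak edges. The 11398 sites were the same with bedtools 2.31.1, and the distance code was checked on simulated data. Densities use midpoints over the span from the first to the last peak of any list on each autosome. Shares carry exact binomial (Clopper-Pearson) and densities exact Poisson intervals at 95%. Counts of 0 are set beside the share that 3 counts of the total would make. The analysis used Python 3.11.15, numpy 2.4.6 and scipy 1.17.1.

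Sites, lists and comparisons were chosen with earlier results of these data known. Regions were named by rank: the 10 widest and 10 most remote sites, the 5 fullest windows and the 5 with the highest share, the 5 longest stretches, and those at the limit. Stretches with most sites, groups and the contrasting chromosome 10 window were picked after their values were seen. Comparisons planned on genes, base composition and motifs need an mm9 annotation or genome and were not run.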

Additional observations from a re-analysis of the deposited data

Results flagged for a closer look

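Sites left out by the rule also lay far from H3K9me3. On the X chromosome, 430 of 450 KDM4B peaks narrower than 3000 bp were more than 10 kb from every H3K9me3 peak, or 95.6% (95% exact binomial interval 93.2 to 97.3%), against 36.8% on the autosomes. Their median width was 469 bp, close to the 471 bp of the autosomal far sites, and their median distance from the mark was 529 kb, against 33.3 kb. Few H3K9me3 peaks were called outside the autosomes: 55158 of 55306 in KO cells and 781 of 943 in WT cells were autosomal. Outside the autosomes the WT list held more peaks than the KO list, the reverse of the autosomes. These counts cover all sequence outside the autosomes and are not given for the X chromosome alone. The share and the distance on the X chromosome are measured to those of the few peaks that lie on it. With 1 library for each antibody and genotype the difference between the X chromosome and the autosomes was not tested.

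Of the 595 autosomal KDM4B peaks of 3000 bp or more, 72 lay more than 10 kb from the mark, or 12.1% (9.59 to 15.0%). They measured 3014 to 16473 bp, with a median of 3762 bp. The widest lay on chromosome 6 from 122536821 to 122553294, 21.7 kb from H3K9me3, and another on the same chromosome from 123211377 to 123221454 measured 10.1 kb and lay 309 kb from the mark.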

How the results depend on the processing

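The share of narrow autosomal KDM4B sites that were far depended most on how H3K9me3 was counted. It was 36.8% as reported, 99.5% with the WT list alone, 57.9% with H3K9me3 peaks of 300 bp or more and 41.7% with those above the smallest width of their list. Limits of 5, 20 and 50 kb gave 47.3, 25.9 and 13.03%, and at 50 kb the number of sites was 4033. It was 38.5% with a width limit of 1000 bp, 37.7% on all chromosomes and 41.7% with KDM4B peaks within 1 kb merged. The KO list alone, midpoint distance, no width limit, and leaving out sites near H3 or KDM4B KO peaks stayed within the counting interval. At 5, 20 and 50 kb the lowest share of a chromosome was 36.9, 16.9 and 7.27%, and the highest 60.4, 37.9 and 21.8%.

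Median width was 419 bp with a width limit of 1000 bp and 541 bp after merging, by construction of those settings, and 471 to 477 bp at other distances. Far sites were narrower at the median than overlapping ones in all 5 alternatives: the difference, far minus overlapping, was -256 bp as reported and ran between -300 and -104 bp. The share with a KDM4B neighbour was 58.4 and 78.4% for neighbour windows of 5 and 20 kb, and 70.8, 65.1 and 61.6% for limits of 5, 20 and 50 kb. The density ratio was 0.145 at 5 kb and 0.125 at 50 kb. The settings for that ratio and for the width difference were added after the data were seen. Alternatives for transcription starts, base composition, motifs and gene lists were not run. The depth of the 3 libraries is unknown, and an H3K9me3 peak missed at low depth would add far sites.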
